A study of Mus musculus with 31 samples.

Results

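The potassium channel genes were taken as all 94 protein-coding genes whose mouse symbol begins with Kcn in the GENCODE M21 names, out of 52636 genes measured. They comprised 40 voltage-gated subunits, 8 calcium- or sodium-activated subunits, 15 inward rectifiers, 14 tandem pore domain (K2P) subunits and 17 accessory subunits or regulators. RNA had been sequenced from punches of the right caudate putamen (CPu, the dorsal striatum) of 31 mice, all given the strain label C57BL/6NTac-Brd1 whatever their genotype, labelled female and 8 to 11 weeks old. The groups were 8 WT mice given vehicle (saline), 7 Brd1+/- mice given vehicle, 8 WT mice given imipramine (IMN, a tricyclic antidepressant, 10 mg/kg) and 8 Brd1+/- mice given IMN at the same dose. Brd1 encodes a scaffold protein of histone acetyltransferase complexes, and Brd1+/- mice carry a heterozygous deletion of loxP-flanked exons in every tissue, so that no result here is tied to a cell type of the striatum. All 4 groups had also passed through injections and behavioral tests before their brains were collected, and no untested mice were part of the table.

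Potassium channels set the resting potential, shape the action potential and limit repetitive firing. Voltage-gated (Kv) channels open on depolarization, inward rectifiers (Kir) hold the membrane near rest or answer G-protein coupled receptors, and K2P channels carry the background leak. Medium spiny neurons, the projection neurons of the striatum, are known for strong Kir currents and a fast inactivating A-type current carried by Kv4 channels. Kv4 pores assemble with cytosolic KChIP proteins, which the Kcnip genes encode, and other Kv channels carry beta subunits encoded by the Kcnab genes. Cortical pyramidal cells and fast-spiking interneurons use other sets, among them Kv3 channels and G-protein gated Kir3 channels.

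The 250 bases upstream of the RefSeq start (GRCm38.p6) are shown for 4 members that the results turn on. Kcnd2 and Kcnip2 had higher expression in vehicle administered Brd1+/- mice, whereas Kcng4 and Kcnk4 had lower expression. All are written 5′ to 3′ on the strand of the gene, with each GC box (GGGCGG, or CCGCCC on the other strand) in capitals.
Kcnd2, chr6:21215096-21215345, plus strand: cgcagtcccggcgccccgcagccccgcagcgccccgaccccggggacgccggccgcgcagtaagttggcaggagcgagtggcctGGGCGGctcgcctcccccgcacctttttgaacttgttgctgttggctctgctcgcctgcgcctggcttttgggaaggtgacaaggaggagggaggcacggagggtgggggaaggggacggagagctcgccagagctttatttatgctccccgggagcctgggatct
Kcnip2, chr19:45816064-45816313, minus strand: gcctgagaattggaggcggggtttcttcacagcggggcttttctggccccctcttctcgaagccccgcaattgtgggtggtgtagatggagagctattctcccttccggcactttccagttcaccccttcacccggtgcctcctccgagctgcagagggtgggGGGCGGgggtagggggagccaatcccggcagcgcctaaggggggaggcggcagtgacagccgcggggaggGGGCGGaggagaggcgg
Kcng4, chr8:119635681-119635930, minus strand: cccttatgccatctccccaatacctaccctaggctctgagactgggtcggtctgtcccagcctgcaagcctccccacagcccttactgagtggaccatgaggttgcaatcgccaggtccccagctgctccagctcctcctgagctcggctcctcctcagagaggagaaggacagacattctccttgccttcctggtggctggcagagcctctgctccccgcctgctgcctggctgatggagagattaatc
Kcnk4, chr19:6934516-6934765, minus strand: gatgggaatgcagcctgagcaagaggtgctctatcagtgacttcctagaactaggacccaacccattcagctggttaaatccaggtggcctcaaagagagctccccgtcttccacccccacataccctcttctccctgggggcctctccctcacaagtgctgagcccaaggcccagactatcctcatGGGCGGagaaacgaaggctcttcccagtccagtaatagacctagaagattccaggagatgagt
The GC box letters occurred 1 time upstream of Kcnd2, 2 times upstream of Kcnip2, 1 time upstream of Kcnk4 and 0 times upstream of Kcng4. They were found in 42 of 94 windows of the 69 Kcn genes matched in RefSeq and in 32.7% of all 32851 windows of this length. The core letters of the cAMP response element, TGACG or CGTCA, were in none of the 4 windows, in 15 of the 94 Kcn windows and in 17.8% of all windows. These matches describe letters only.

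Before the channel genes were compared, the libraries were checked against their labels. Brd1 itself was at 22.5 ± 2.97 TPM (transcripts scaled to a fixed total per library, SD, n = 8) in WT vehicle mice and at 13.4 ± 2.02 TPM (SD, n = 7) in Brd1+/- vehicle mice, without overlap. Among the 8 WT vehicle mice, 6 had a cortical excitatory neuron score (the mean log2(TPM + 1) of 10 marker genes such as Slc17a7) of 4.76 to 5.98, above every Brd1+/- vehicle mouse (1.33 to 3.32), whereas mice 6 and 8 (0.90 and 1.01) were below every one. The label CPu was not borne out in the library labelled WT vehicle 2, where the dopamine receptor genes Drd1 and Drd2, which define medium spiny neurons, were at 1.37 and 0.75 TPM and the striatal score was 3.47, compared with 6.28 in the next lowest mouse. The library labelled WT vehicle 7 held 26.8 TPM of Y-linked genes, compared with at most 0.188 TPM in any other, which goes against its label as female. Results of the vehicle comparison are therefore also given without mice 2 and 7, a choice made after seeing the data.

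Expression of the family was broad. Of the 94 genes, 69 had a mean of at least 1 TPM over the 31 mice and 40 of at least 10 TPM. Those with at least 100 TPM included Kcnab1 (242.2 TPM) and Kcnab2 (132 TPM), beta subunits of Kv1 channels, Kcnip2 (203 TPM), the KChIP2 partner of Kv4, Kcnt1 (117 TPM), a sodium-activated channel, and Kcnj4 (114 TPM), the strong inward rectifier Kir2.3. At the other end, 7 genes never exceeded 0.1 TPM in any mouse, and Kcna7, Kcne1 and Kcnj1 were listed at 0 in all. Summed over the family, the median was 2527 TPM in WT vehicle, 2283 TPM in Brd1+/- vehicle, 2283 TPM in WT IMN and 2098 TPM in Brd1+/- IMN mice. A gene was tested where 7 or more mice of a comparison exceeded 0.1 TPM, which left 79 of the 94 under vehicle, and 12 of the 94 were tested in no comparison. In punches of mixed tissue, fewer cells of a type and less RNA per cell cannot be told apart.

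The comparison of Brd1+/- with WT mice under vehicle described how these groups differed at baseline, in punches that also differed in cortical score. At the nominal threshold of p under 0.01 that the study used, 24 of 79 channel genes were lower and 5 were higher in Brd1+/- mice (limma on log2(TPM + 1)). Of all 23200 genes tested, 12.1% were lower and 1.47% were higher at this threshold. The median log2 difference was -0.36 over the channel genes and -0.13 over all genes. None of the 79 passed a false discovery rate of 5%, 40 passed 10% and 47 had an unadjusted p under 0.05, compared with 20.2% and 30.9% of all genes. In some other fits of this comparison channel genes did pass 5%, as given in the closing section. With median-of-ratios scaling, which moves the median of all genes to -0.00077, the calls were 16 lower and 9 higher (9.19% of all genes in either direction), and with quantile normalization 17 lower and 9 higher (9.53%). Without WT vehicle mice 2 and 7, 8 channel genes were lower and 0 higher, namely Kcnip1, Kcnip4, Kcnj9, Kcnj12, Kcnk4, Kcnk12, Kcnmb4 and Kcns1, while 5.83% of all genes were called in either direction. The 5 genes called higher with all mice then differed by 0.35 (Kcnd1), 0.50 (Kcnd2), 0.64 (Kcnj2), 0.71 (Kcnip2) and 0.77 (Kcnab1). Their unadjusted p lay between 0.011 and 0.021 (limma).

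**Figure D1:**
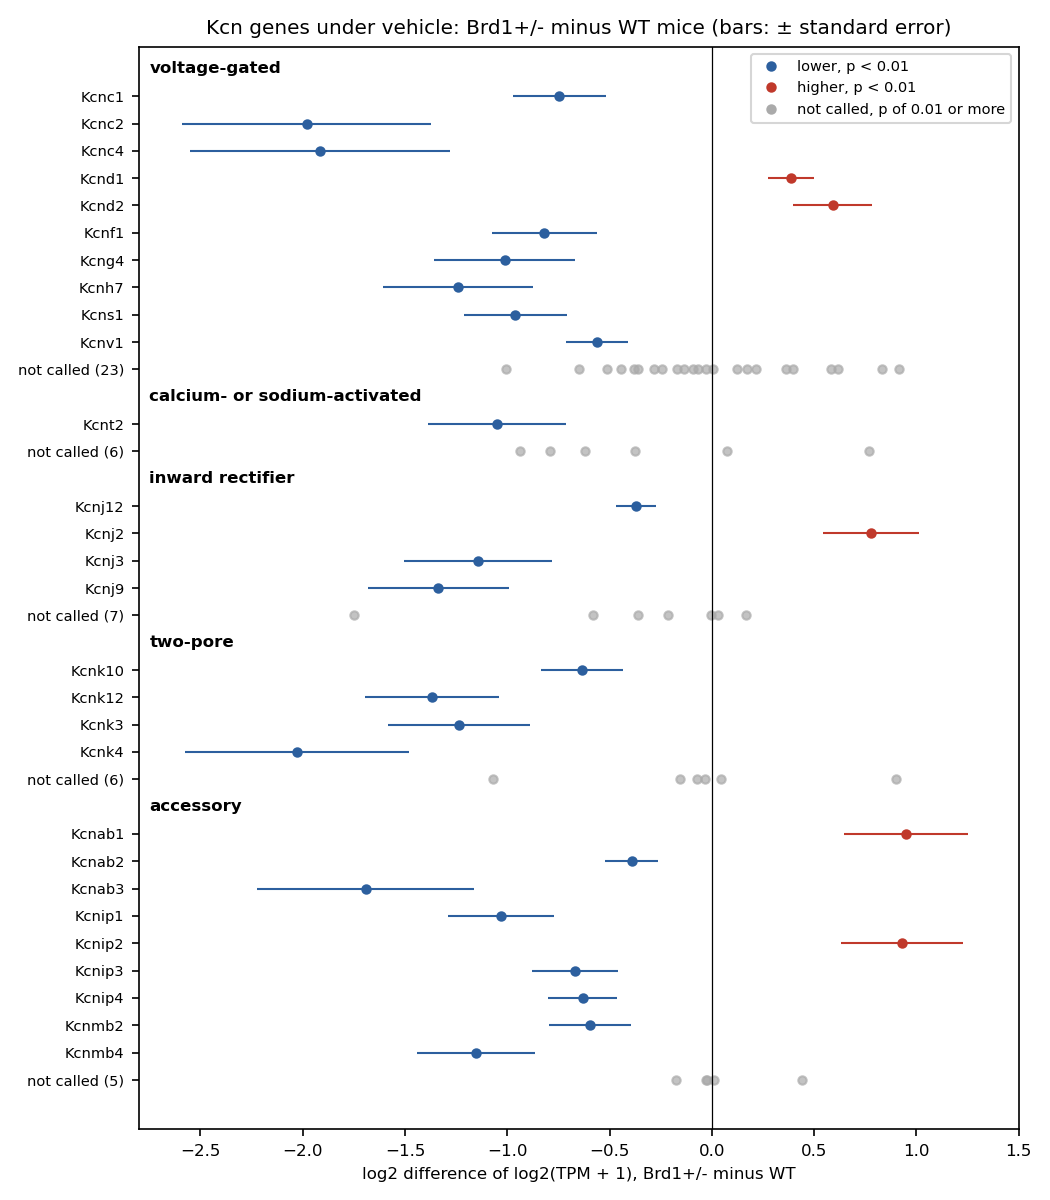
Log2 difference (Brd1+/- minus WT, vehicle) of log2(TPM + 1) on the horizontal axis for 75 of the tested Kcn genes, by channel class. Blue points mark 23 genes lower and red points 5 genes higher at p under 0.01, each on a row of its own with a bar for the standard error, grey points mark 47 genes not called, on 1 row per class without bars, and the lowest point is Kcnk4 at -2.03.

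Genes of the Kv4 complex were split. Kcnd2, the Kv4.2 pore of the A-type current, ranged from 32.1 to 80.3 TPM in WT vehicle mice (median 56.1) and from 64.3 to 91.0 TPM in Brd1+/- vehicle mice (median 80.5). The groups overlapped, with 5 of 8 WT mice below every Brd1+/- mouse. The log2 difference was 0.59 ± 0.19 (SE), and an exact two-sided permutation test gave p = 0.00932, 0.0348 after adjustment over the 8 tests of Kcnd2 and Kcng4. Without WT vehicle mice 2 and 7 the difference was 0.50 (exact permutation test, p = 0.035). Kcnd1 (Kv4.1), at a lower level, showed 4.45 to 7.21 TPM in WT and 5.97 to 9.38 TPM in Brd1+/- mice, a log2 difference of 0.39 ± 0.11, with 7 of 8 WT mice below every Brd1+/- mouse. Kcnd3 (Kv4.3) was not called, with a log2 difference of -0.51 ± 0.24 (adjusted p = 0.156, limma).

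The KChIP genes moved in both directions. Kcnip2 ranged from 48.2 to 280.0 TPM in WT vehicle mice (median 125) and from 198 to 277 TPM in Brd1+/- mice (median 247), a log2 difference of 0.93 ± 0.30. Here 6 of 8 WT mice were below every Brd1+/- mouse and 1 was above every one. The other 3 members were lower in Brd1+/- mice. Kcnip1 had a log2 difference of -1.03 ± 0.26, with 5.49 to 21.9 TPM in WT and 4.42 to 7.80 TPM in Brd1+/- mice. Kcnip3, also known as the transcriptional repressor DREAM, differed by -0.67 ± 0.21 and Kcnip4 by -0.63 ± 0.17. For Kcnip1 and Kcnip3, 6 of 8 WT mice were above every Brd1+/- mouse, and for Kcnip4 it was 7 of 8. In composition, Kcnip2 made up 17.2% to 70.5% of the summed Kcnip TPM in WT vehicle mice (median 39.8%) and 67.3% to 74.0% in Brd1+/- vehicle mice (median 69.2%).

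Among Kv beta subunits the same split was seen. Kcnab1 was at 64.8 to 342 TPM in WT vehicle (median 148) and at 267 to 330.0 TPM in Brd1+/- vehicle mice (median 301), a log2 difference of 0.95 ± 0.30. Kcnab2 was lower in Brd1+/- mice by a log2 difference of -0.39 ± 0.13, and Kcnab3 by -1.69 ± 0.53. The range of Kcnab3 in WT vehicle mice, 4.54 to 148 TPM with a median of 23.3, was set at its top by mouse 2, whose next neighbour was at 29.6 TPM, and Brd1+/- vehicle mice were at 4.30 to 7.47 TPM. Kcnab3 shared 5.13% of its exonic bases with an antisense transcript.

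**Figure D2:**
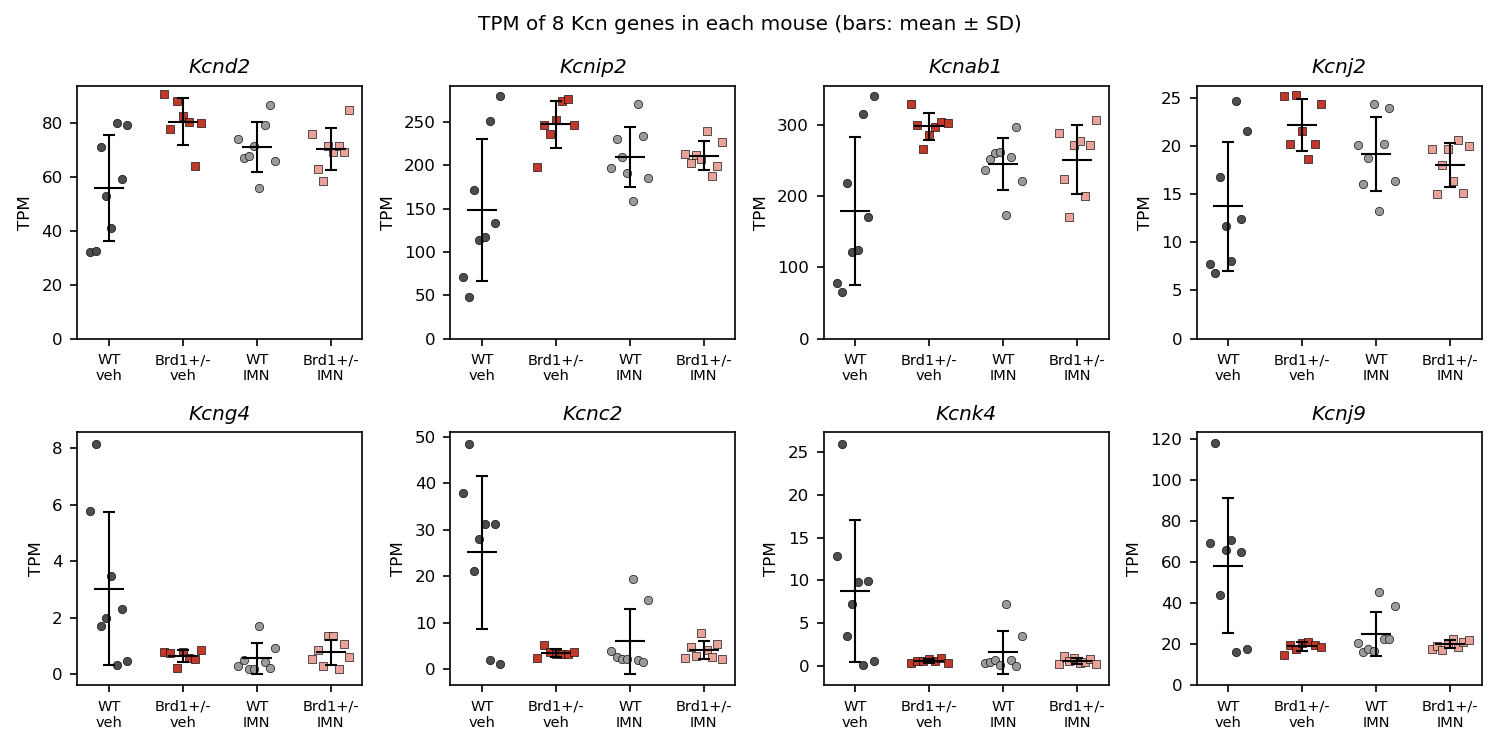
TPM of 8 Kcn genes (vertical axis) in each mouse of the 4 groups, with bars for the mean ± SD. For Kcnd2, Kcnip2, Kcnab1 and Kcnj2, 5 or 6 of the 8 WT vehicle mice sit below all Brd1+/- vehicle mice, and for Kcng4, Kcnc2, Kcnk4 and Kcnj9, 6 of 8 sit above them.

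Among fast Kv3 channels, which permit high firing rates, Kcnc1, Kcnc2 and Kcnc4 were lower. Kcnc2 (Kv3.2) ranged from 1.19 to 48.5 TPM in WT vehicle mice (median 29.5) and from 2.31 to 5.07 TPM in Brd1+/- vehicle mice (median 3.24). In WT mice the values fell apart, 6 above every Brd1+/- mouse and 2 below every one, and the log2 difference was -1.98 ± 0.61. Kcnc4 (Kv3.4) showed the same arrangement, with 1.62 to 68.6 TPM in WT and 1.97 to 6.63 TPM in Brd1+/- mice and a log2 difference of -1.92 ± 0.64. Kcnc1 (Kv3.1) differed by -0.74 ± 0.23.

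Silent Kv subunits, which form no channel on their own and modify Kv2 pores, were lower in 4 of 9 tested members and higher in none, beside 12.1% and 1.47% of all genes. Kcng4 (Kv6.4) was at 0.327 to 8.15 TPM in WT vehicle (median 2.17) and at 0.243 to 0.880 TPM in Brd1+/- vehicle mice (median 0.770). Of the 8 WT mice, 6 were above every Brd1+/- mouse and the other two lay within their range. The log2 difference was -1.01 ± 0.34 (exact two-sided permutation test, p = 0.0131, 0.0348 after adjustment over the 8 tests), and -0.77 without WT vehicle mice 2 and 7 (exact permutation test, p = 0.049). Kcns1 (Kv9.1) differed by -0.96 ± 0.25, Kcnv1 (Kv8.1) by -0.56 ± 0.15 and Kcnf1 (Kv5.1) by -0.82 ± 0.26. Of the 5 not called, 3 had a positive difference, Kcng3 (Kv6.3) of 0.58 ± 0.21, Kcng1 (Kv6.1) of 0.36 ± 0.21 and Kcns2 (Kv9.2) of 0.22 ± 0.16. With median-of-ratios scaling Kcng3 was called higher (0.68 ± 0.21), and Kcng4 (-0.88 ± 0.32) and Kcnv1 (-0.38 ± 0.13) were not called.

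Of the remaining voltage-gated genes, Kcnh7, an ether-a-go-go related (ERG) channel, was lower by a log2 difference of -1.24 ± 0.37. No Kcna gene was called: the most abundant, Kcna1 (Kv1.1), had 24.5 to 82.6 TPM in WT and 27.2 to 54.4 TPM in Brd1+/- vehicle mice. Kcna4 (Kv1.4) had a log2 difference of 0.92 ± 0.33 (adjusted p = 0.0818, limma). In this class 2 of 37 tested genes were higher and 9 lower, beside 1.47% and 12.1% of all genes.

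Inward rectifiers also differed by type. Kcnj2 (Kir2.1), a strong rectifier of medium spiny neurons, was at 6.80 to 24.8 TPM in WT vehicle (median 12.04) and at 18.7 to 25.3 TPM in Brd1+/- vehicle mice (median 21.6), a log2 difference of 0.78 ± 0.23. The G-protein gated subunits Kcnj9 (Kir3.3) and Kcnj3 (Kir3.1) were lower. Kcnj9 was at 16.2 to 118 TPM in WT vehicle (median 65.2) and at 14.7 to 21.01 TPM in Brd1+/- vehicle mice (median 19.7), a log2 difference of -1.34 ± 0.34. Kcnj3 differed by -1.14 ± 0.36, and 31.1% of its exonic bases overlap a gene on the opposite strand. Kcnj6 (Kir3.2) had one of the largest differences of the family but missed the threshold, at -1.75 ± 0.61 (adjusted p = 0.0772, limma). Kcnj12 (Kir2.2) differed by -0.37 ± 0.10, and the abundant Kcnj4 was not called (0.17 ± 0.13). For Kcnj12 the groups overlapped, with 4 of 8 WT mice above every Brd1+/- mouse, and Brd1+/- vehicle mouse 7 lay apart from its group at 8.19 TPM.

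K2P leak channels included the gene with the lowest log2 difference. Kcnk4 (TRAAK) was at 0.151 to 25.9 TPM in WT vehicle mice (median 8.49) and at 0.329 to 0.915 TPM in Brd1+/- vehicle mice (median 0.579), a log2 difference of -2.03 ± 0.55. As for most genes lower in Brd1+/- mice, 6 of 8 WT mice were above every Brd1+/- mouse, and mouse 6 was below every one. Kcnk4 shares 13.2% of its exonic bases with Catsperz on the same strand. Kcnk12 (THIK-2), whose p of 0.000732 was the smallest of the family, differed by -1.37 ± 0.33, and Kcnk3 (TASK-1) by -1.24 ± 0.35. With Kcnk10 (TREK-2), 4 of 10 tested were lower, beside 12.1% of all genes. Kcnk2 (TREK-1), the most abundant at 94.6 TPM, was not called, at 0.90 ± 0.35 (adjusted p = 0.0994, limma).

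Of the calcium- and sodium-activated channels, 1 of 7 tested was lower, near the 12.1% of all genes. This was the sodium-activated Kcnt2, by a log2 difference of -1.05 ± 0.34. Kcnma1, the BK pore, was not called at -0.38 ± 0.22, nor was the small-conductance Kcnn2 at -0.62 ± 0.22 (adjusted p = 0.0836, limma). Among BK beta subunits, Kcnmb4 and Kcnmb2 were lower. Kcnmb4, the neuronal one, was at 27.1 to 130.0 TPM in WT vehicle (median 97.3) and at 25.5 to 44.1 TPM in Brd1+/- vehicle mice (median 35.6), a log2 difference of -1.15 ± 0.29. Kcnmb4 has 31.5% of its exonic bases opposite another gene, and whether reads were assigned by strand is not given in the sources used here. Kcnmb2 was lower by -0.60 ± 0.20 at a level under 3 TPM in every mouse.

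Adjusted p over all genes lay between 0.0556 and 0.0725 for the 29 called channel genes (limma, Benjamini-Hochberg). All 29 kept their sign in each of the 15 fits that leave out 1 mouse, and 14 of 29 were called in every one. Over these fits the number called ranged from 15 to 43, beside 29 with all mice. It was 15 without WT vehicle mouse 1, 17 without mouse 2, 16 without mouse 4, 17 without mouse 5 and 18 without mouse 7. It was 17 without Brd1+/- vehicle mouse 1 and 19 without mouse 4 or without mouse 5. Fits with more calls are not listed by mouse, and the shares of all genes in these fits are not given here.

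Because the cortical score separated WT vehicle mice from each other, each gene was also fitted against it. Within groups, over all 31 mice, 37 of 82 tested channel genes rose with the score and 10 fell at p under 0.01 (limma with a term for each group), and 51 passed a false discovery rate of 5%. Of all 25394 genes, 19.7% rose, 4.21% fell and 25.2% passed that rate. Under median-of-ratios scaling 32 rose and 16 fell, and under quantile normalization 30 rose and 17 fell, with 20.2% and 21% of all genes called. The steepest were Kcnc4 at 0.78 ± 0.04, Kcnj6 at 0.77 ± 0.05 and Kcnc2 at 0.72 ± 0.04 log2 units per unit of score, and Kcnk4 (0.59 ± 0.06), Kcnj3 (0.41 ± 0.04), Kcnh7 (0.41 ± 0.04), Kcnk3 (0.37 ± 0.03) and Kcnmb4 (0.35 ± 0.03) followed among those with the smallest p. The falling genes were led by Kcnj2 (-0.20 ± 0.03), Kcnh4 (-0.18 ± 0.03), Kcnab1 (-0.23 ± 0.04), Kcna4 (-0.24 ± 0.05), Kcnd2 (-0.14 ± 0.03), Kcnip2 (-0.20 ± 0.04), Kcnk2 (-0.22 ± 0.05) and Kcnj4 (-0.08 ± 0.02).

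**Figure D3:**
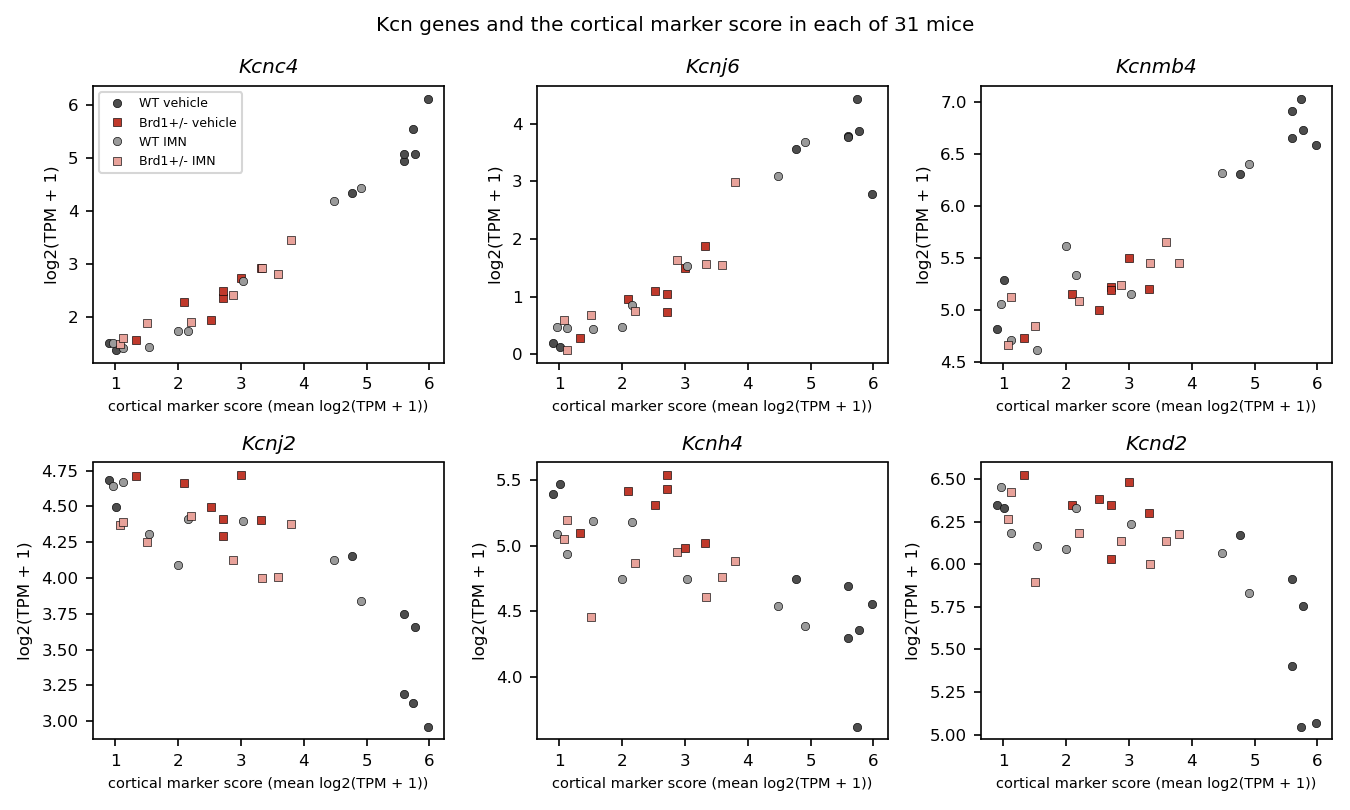
Log2(TPM + 1) of 6 Kcn genes (vertical axis) against the cortical marker score of the same mouse (horizontal axis), 1 point for each of 31 mice, by group. Kcnc4, Kcnj6 and Kcnmb4 climb along the score (slopes 0.78, 0.77 and 0.35), while Kcnj2, Kcnh4 and Kcnd2 descend (slopes -0.20, -0.18 and -0.14).

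The 16 IMN administered mice share no animal with the vehicle comparison. Fitted in them alone, 20 of 80 tested channel genes rose with the cortical score and 3 fell, where 6.43% and 1.87% of all 23339 genes did so. Of the 24 channel genes lower in Brd1+/- vehicle mice, 14 (58.3%) were among these 20, of which they made up 70.0%, and 23 had a positive slope, compared with 46 of all 80. All 5 higher genes had a negative slope, but only Kcnj2 passed. The score of these mice leaned on WT IMN mice 5 and 8, with 4.92 and 4.47, and without them (a choice made after seeing the data) 9 genes rose and 1 fell, where 2.75% of all genes were called, 7 of the 9 being lower in Brd1+/- vehicle mice. The 7 were Kcnc2, Kcnc4, Kcng4, Kcnip3, Kcnj3, Kcnk4 and Kcnmb4. In that fit 20 of the 24 lower genes had a positive slope, compared with 43 of all 80, and 4 of the 5 higher genes a negative one, Kcnd1 being at 0.047. These overlaps were counted among channel genes only, not among all genes lower under vehicle. Whether they are particular to the family was not tested.

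When the cortical score was added to the vehicle model, 7 channel genes were lower in Brd1+/- mice at p under 0.01 and none was higher, with 2.33% of all genes called. They were Kcnmb4 (-0.48 ± 0.11), Kcnj9 (-0.54 ± 0.14), Kcnip1 (-0.46 ± 0.13), Kcnk12 (-0.67 ± 0.20), Kcnc2 (-0.53 ± 0.17), Kcnk3 (-0.44 ± 0.14) and Kcnk4 (-0.81 ± 0.27), with adjusted p of 0.228 to 0.427 (limma). Kcnd2 then had a log2 difference of 0.25 ± 0.16 and Kcng4 of -0.37 ± 0.27. With the striatal score in its place, 0 channel genes were called (limma), and the share of all genes is not given here. Kcnj12 (-0.30 ± 0.11), Kcnv1 (-0.47 ± 0.18) and Kcnd1 (0.30 ± 0.12) then kept most of their difference. Kcnd2 (0.19 ± 0.13) and Kcng4 (-0.26 ± 0.19) kept less. The striatal score itself was higher in Brd1+/- than in WT vehicle mice by 1.66 (exact permutation test, p = 0.0109, 0.211 adjusted over 36 score tests) and the cortical score was lower (-1.89, exact permutation test, p = 0.0497, 0.256 adjusted). Of the marker lists, 2 of 10 cortical genes and 3 of 10 interneuron genes were lower and 1 striatal gene and 1 interneuron gene were higher in Brd1+/- vehicle mice at p under 0.01. Of the genes tested for astrocytes (8), microglia (8), oligodendrocytes (8), endothelium and mural cells (8), choroid plexus and ependyma (3) and erythrocytes (5), 0 were called (limma). The cortical list summed to 12.5 to 2016 TPM in WT vehicle and 21.05 to 241 TPM in Brd1+/- vehicle mice, and the cortical marker Emx1 was listed at 0 in at least 1 WT vehicle mouse. The striatal list summed to 292.5 to 10796 TPM in WT vehicle and 8740 to 10117 TPM in Brd1+/- vehicle mice.

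Under IMN, Brd1+/- and WT mice were compared to see whether the genotypes still differ once treated. None of 80 channel genes was called (limma, p under 0.01) and 2 had a p under 0.05, where 0.514% of all genes were lower, 0.189% were higher and 3.92% had a p under 0.05. Kcnd2 was at 55.9 to 86.7 TPM in WT and 58.6 to 84.9 TPM in Brd1+/- IMN mice, a log2 difference of -0.01 (exact permutation test, p = 0.914). Kcng4 had 0.188 to 1.73 TPM in WT and 0.208 to 1.34 TPM in Brd1+/- IMN mice, a difference of 0.21 (exact permutation test, p = 0.300). Over the family the differences lay between -0.49 and 0.21, and without WT IMN mouse 2 the count was 1. The cortical score was 0.96 to 4.92 in WT and 1.08 to 3.79 in Brd1+/- IMN mice. The erythrocyte score was higher in Brd1+/- than in WT IMN mice by 0.52 (exact permutation test, p = 0.0171, 0.211 adjusted over 36 score tests), and 1 of 5 erythrocyte genes was called higher (limma).

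IMN was compared with vehicle in WT mice, whose vehicle punches differed widely in cortical score. Here 13 of 80 channel genes were lower and 4 higher in IMN mice at p under 0.01, and 5.6% and 1.35% of all 23579 genes were. None passed a false discovery rate of 5% (limma), and 38 had a p under 0.05, compared with 23.1% of all genes. This comparison uses the same 8 WT vehicle mice as the genotype comparison, so the values are given side by side and not as a second observation. Among the 5 lower genes with the smallest p, Kcnj16 (Kir5.1) differed by -0.83 ± 0.24 with IMN and by -0.58 ± 0.24 between the vehicle genotypes, Kcnip3 by -0.60 ± 0.18 and -0.67 ± 0.21, and Kcnv1 by -0.55 ± 0.16 and -0.56 ± 0.15. Kcng4 differed by -1.15 ± 0.35 and -1.01 ± 0.34, and Kcnk12 by -1.11 ± 0.34 and -1.37 ± 0.33. For Kcng4 the exact two-sided permutation test gave p = 0.00793 (0.0348 adjusted over the 8 tests). The 4 higher genes were Kcng3 (0.69 ± 0.18), Kcnn3 (1.10 ± 0.36), Kcna5 (1.04 ± 0.35) and Kcnk7. The last was listed at 0 in all 8 WT vehicle mice and at up to 0.309 TPM in WT IMN mice, so that it passed the filter through the IMN mice alone and its call carries no information. The striatal score was higher in WT IMN than in WT vehicle mice by 1.46 (exact permutation test, p = 0.0253), the cortical score differed by -1.89 (exact permutation test, p = 0.0674) and the erythrocyte score was lower (-0.51, exact permutation test, p = 0.0176), with adjusted p of 0.211 to 0.285 over 36 score tests, and 2 of 5 erythrocyte genes were called lower (limma). Of the other lists, 1 cortical, 1 endothelial or mural and 1 interneuron gene were called lower, and 1 choroid plexus or ependymal and 1 interneuron gene higher. The part of the lists other than the cortical and striatal ones in the result was not tested. Kcnd2 was not called, at 0.41 (exact permutation test, p = 0.0643). Apart from Kcnk7, no channel gene was called when the cortical or the striatal score was added, where 1.43% and 1.28% of all genes were called. Without WT vehicle mice 2 and 7 the count was 4, beside 2.71% of all genes. With mouse number as a replicate block, 5 of the 15 named calls were lost, whereas the total rose when all 4 groups were fitted together. Leaving out 1 mouse gave 35 calls without WT vehicle mouse 6, 32 without WT vehicle mouse 8, 11 or fewer without WT vehicle mouse 1, 2, 4, 5 or 7, and 6 to 8 without WT IMN mouse 1, 2, 3, 4, 6 or 7.

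**Figure D4:**
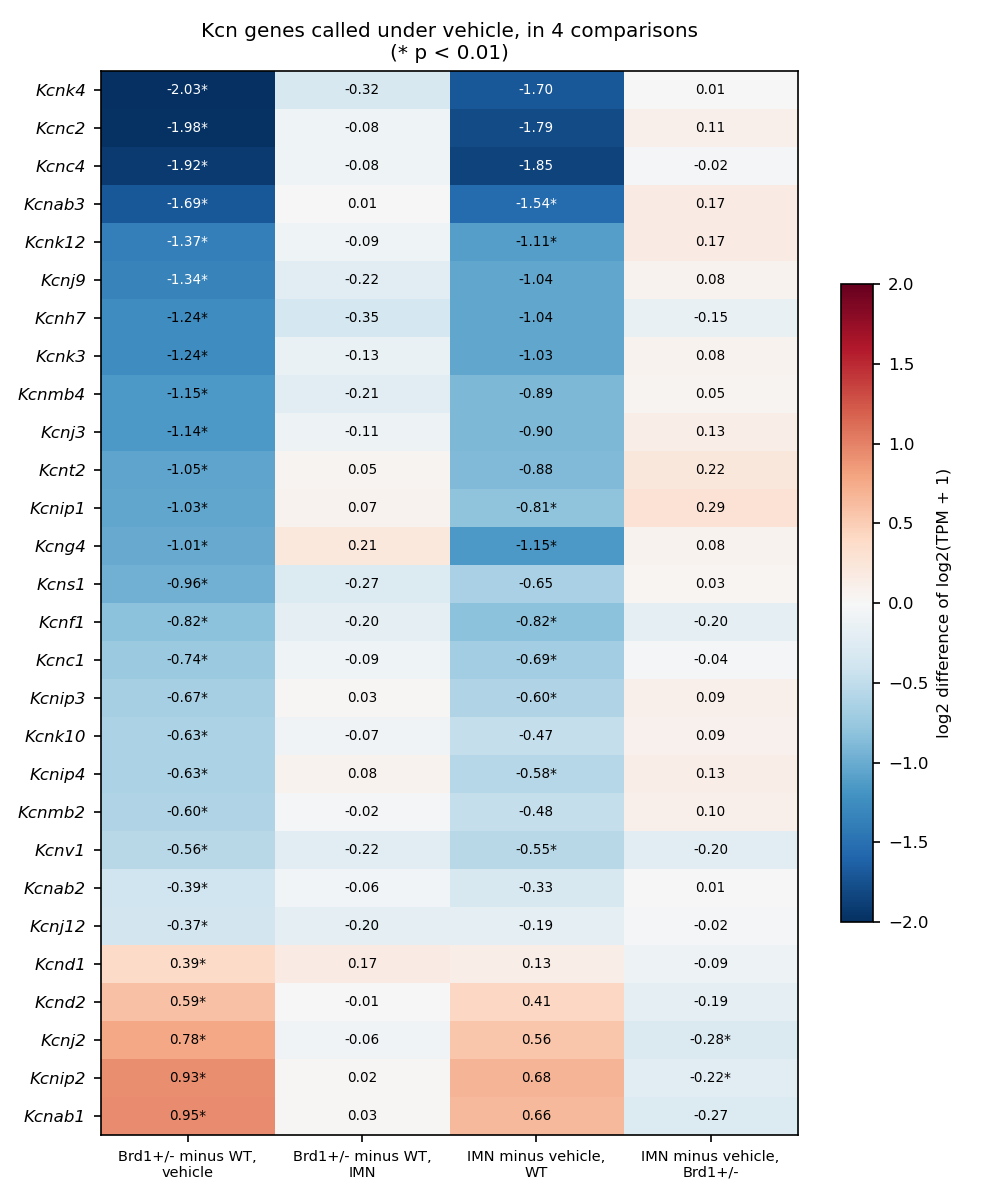
Log2 difference of log2(TPM + 1), as colour and number, of 28 Kcn genes called under vehicle (rows) in the 4 comparisons between groups (columns), with a star at p under 0.01. The vehicle genotype column and the WT drug column share the 8 WT vehicle mice, and values in the other columns lie between -0.35 and 0.29.

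In Brd1+/- mice, IMN against vehicle gave 3 of 81 channel genes lower and 0 higher, with 0.964% and 0.869% of all 23020 genes. These were Kcnh4, an ELK-type Kv channel, at -0.41 ± 0.11, Kcnj2 at -0.28 ± 0.09 and Kcnip2 at -0.22 ± 0.07, with adjusted p of 0.408 to 0.519 (limma). Kcnh4 was at 30.6 to 45.5 TPM under vehicle (median 38.7) and 20.99 to 35.7 TPM under IMN (median 28.4), so the groups overlapped. The striatal score was lower in Brd1+/- IMN than in Brd1+/- vehicle mice (-0.18, exact permutation test, p = 0.0413, 0.256 adjusted over 36 score tests), and so was the score of endothelium and mural cells (-0.11, exact permutation test, p = 0.0444, 0.256 adjusted). Of these lists, 1 of 10 striatal and 1 of 8 endothelial and mural genes were called lower (limma), and the part of the latter in the result was not tested. With the striatal score added, none of the 3 was called, at -0.20 ± 0.10 for Kcnh4, -0.27 ± 0.11 for Kcnj2 and -0.16 ± 0.08 for Kcnip2, whereas Kcnf1 (-0.47 ± 0.11) and Kcnv1 (-0.36 ± 0.08) were lower (1.49% of all genes called). With the cortical score added, all 3 were called, and Kcna6 was higher (0.38 ± 0.12), beside 2.19% of all genes. None of the 3 was called when all 4 groups were fitted together (limma), and 2 were with mouse number as a replicate block. The count was 1 without Brd1+/- vehicle mouse 7 and 1 without Brd1+/- IMN mouse 2. Kcnd2 differed by -0.19 (exact permutation test, p = 0.0385, 0.0771 adjusted over the 8 tests).

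The interaction asked whether the response to IMN differed between genotypes, over all 31 mice. It was positive in 7 and negative in 4 of 82 channel genes at p under 0.01, where 2.97% and 0.78% of all 25394 genes were, and none passed a false discovery rate of 5% (limma). A p under 0.05 was found in 34, and in 16.2% of all genes. With median-of-ratios scaling 5 were positive and 5 negative, and with quantile normalization 5 and 7, beside 3.17% and 3.39% of all genes. Accessory genes made up 6 of the 11, namely Kcnip1, Kcnip3, Kcnip4 and Kcnab3 with a positive and Kcnip2 and Kcnab1 with a negative term. When the cortical score was added, Kcnk12 (0.76 ± 0.26) and Kcnip4 (0.45 ± 0.16) were called (1.04% of all genes), and 4 genes were without WT vehicle mice 2 and 7 (1.62%). The count was 30 without WT vehicle mouse 6, 31 without WT vehicle mouse 8, 21 without WT IMN mouse 5, 16 without WT IMN mouse 8, 15 without WT vehicle mouse 3, and 5 to 7 without WT vehicle mouse 1, 2, 4 or 5, Brd1+/- vehicle mouse 1, 4, 5 or 7, WT IMN mouse 1, 2, 3, 4, 6 or 7, or Brd1+/- IMN mouse 2, 4, 5, 6 or 7.

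Genes that encode channel partners outside the Kcn names were read from a list of 15, of which 13 were tested. Under vehicle 3 were lower in Brd1+/- mice and none higher, beside 12.1% and 1.47% of all genes, among them Lrrc55, a gamma subunit of BK channels (-1.15 ± 0.25), and Abcc8, the sulfonylurea receptor of ATP-sensitive channels (-0.85 ± 0.23). Both also rose with the cortical score over all 31 mice, with slopes of 0.24 ± 0.03 and 0.13 ± 0.04 log2 units per unit of score. Dpp6 and Dpp10, which assemble with Kv4 pores, were not called under vehicle.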

How the data were processed

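RNA had been extracted from frozen CPu punches of 31 mice and sequenced on a BGISEQ-500. Per the labels, the authors used FastQC, Trimmomatic, HISAT2 2.1.0 and StringTie 1.3.4 on GRCm38, and deposited a table of TPM for 52636 genes, of which 52403 were paired with a symbol and 233 were not. TPM are scaled to a fixed sum (999787 to 999918 per mouse), so a rise of some genes lowers all others. The sequencing depth of each mouse cannot be read from them, and the study states only a minimum number of reads per sample. No column was left unused. Whether reads were counted by strand is not given in the sources used here. The study called genes at p under 0.01, which was kept here.

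Here, log2(TPM + 1) of all genes above 0.1 TPM in at least 7 mice of a comparison was fitted with limma 3.58.1 in R 4.3.3 (empirical Bayes with a trend, two-sided) within the groups compared, with Benjamini-Hochberg adjustment over all genes tested, and the Kcn rows were then read out. Differences are on the log2(TPM + 1) scale, which understates changes of low genes. The fit was tested on simulated data before use. Kcnd2 and Kcng4 were also given exact permutation tests. The genes named were Kcnd2 and Kcng4, up to 15 genes in each direction with the smallest p in the vehicle comparison, 5 in the other comparisons, 8 for the slope, the most abundant member of each subfamily, partner genes called under vehicle, and, after their values were seen, other called genes counted within a class and genes close to the threshold. A few genes enter the counts but are not reported here by name. Members, marker lists, the partner list and the rules were chosen with earlier results of these data known. Marker lists covered cortical, striatal, interneuron, glial, vascular, choroid plexus, erythrocyte and Y-linked genes. Upstream sequences came from RefSeq (GRCm38.p6), with exon overlaps from GENCODE M21. Each mouse was 1 replicate, and the mice were litter-matched per the study.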

Additional observations from a re-analysis of the deposited data

Results flagged for a closer look

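In each group, the Kcn genes taken up by the naming rule, apart from the few not reported here, were each examined for a mouse that stood apart from the rest (Dixon's test at the 95% level), 176 combinations of gene and group in all. Chance alone marks about 1 in 20, and 12 were marked. Of these, 6 were in WT vehicle mouse 2, the library with the lowest striatal score: Kcnab3 at 148 TPM, Kcnh3 at 100.3 TPM, Kcnj16 at 13.4 TPM, Kcnn2 at 66.6 TPM, Kcnrg at 1.47 TPM and Kcns1 at 20.5 TPM. WT IMN mouse 5, which had the highest cortical score of its group, stood apart for Kcns1 at 5.78 TPM. Brd1+/- vehicle mouse 7 stood apart for Kcnj12 at 8.19 TPM, and Brd1+/- vehicle mouse 3 for Kcng1 at 18.1 TPM, the only low value. Among Brd1+/- IMN mice, Kcnip1 was at 26.3 TPM in mouse 3, Kcnj6 at 6.93 TPM in mouse 4 and Kcnt1 at 156.1 TPM in mouse 8.

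For 11 genes the response to IMN differed between genotypes at p under 0.01 in the interaction term (limma, adjusted p = 0.261 for each). The difference of the responses, Brd1+/- minus WT, was 1.28 for Kcnk12, 0.71 for Kcnip4, 1.22 for Kcng4, 1.71 for Kcnab3, 1.10 for Kcnip1, 0.70 for Kcnip3 and 1.12 for Kcnj9 on the log2 scale. It was -0.84 for Kcnj2, -0.91 for Kcnip2, -0.60 for Kcnd2 and -0.92 for Kcnab1. The WT vehicle mice, whose cortical scores spread most widely, enter each of these terms.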

How the results depend on the processing

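Counts of called Kcn genes depended on the marker scores, on single mice and on which groups and mice were fitted together. Adding the cortical score left 7 genes called under vehicle, 1 for IMN in WT mice (Kcnk7, which the filter admitted through the IMN mice alone) and 2 for the interaction, and with the striatal score 0, 1 (again Kcnk7) and 0. With the striatal score, Kcnj12 was still at -0.30 under vehicle, Kcnv1 at -0.47 and Kcnd1 at 0.30, while Kcnd2 was at 0.19. For that score, shares of all genes under vehicle and for the interaction are not given here. Without WT vehicle mice 2 and 7 the counts were 8, 4 and 4, and without WT vehicle mouse 7 alone 18 under vehicle and 9 for IMN in WT mice. Fitting all 4 groups together gave 34 for IMN in WT mice and 0 in Brd1+/- mice, without a share of all genes to set beside them. The slope on the cortical score called 23 genes in IMN mice alone and 10 without WT IMN mice 5 and 8, where the slopes of Kcnc1 (-0.00851), Kcng1 (0.0558), Kcnip1 (-0.201), Kcnn2 (-0.0342) and Kcnv1 (-0.0129) had another sign than over all 31 mice, as did those of Kcnb2 (-0.0875), Kcnd3 (-0.0183) and Kcnn1 (-0.0384), 8 in all. Leaving out each mouse in turn gave 15 to 43 calls under vehicle, 0 to 1 under IMN, 6 to 35 for IMN in WT mice, 1 to 4 in Brd1+/- mice and 5 to 31 for the interaction, and the slope count without WT vehicle mouse 7 was 50. The pseudocount, filters, both scalings and the prior without a trend kept each total within 1.5 times the reported one, but not each direction: under median-of-ratios scaling and quantile normalization, genes higher under vehicle went from 5 to 9 and 9, falling slopes from 10 to 16 and 17, and negative interaction terms from 4 to 5 and 7. Why these counts moved was not tested, and the shares of all genes in the leave-one-out fits are not given here.

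The mouse numbers were also used as a replicate block. In no comparison did all same-numbered pairs deviate together, and the main fits left the mice unpaired. Correlations were -0.14 to 0.06 under vehicle (over 0.1 in 0 of 7 pairs) and -0.19 to 0.19 under IMN (in 2 of 8). They were -0.39 to 0.41 for IMN in WT mice (in 2 of 8) and -0.07 to 0.21 in Brd1+/- mice (in 3 of 7). Whether some same-numbered mice share a litter was not tested. A mouse correlated best with its own number in 3 pairs in Brd1+/- mice and in 0 elsewhere. With the block 37 genes were called under vehicle, 35 of them at a false discovery rate of 5%, 0 under IMN, 12 for IMN in WT mice, 3 in Brd1+/- mice and 13 for the interaction. Of the named calls, 5 of 15 for IMN in WT mice and 1 of 3 in Brd1+/- mice were not called with the block. At that false discovery rate 42 passed with all 4 groups in the vehicle fit and 16 with only genes of a mean TPM of at least 1, compared with 0 as reported. The shares of all genes under the block, the fit of all 4 groups and the filter on mean TPM are not given here. These counts are therefore not a result about the channel genes. In TPM, which do not carry the depth of each library, genes near 0.1 TPM are the least certain.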
